A study of Homo sapiens with 8 samples.

Results

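The proteasome genes described here are the 48 of 18216 genes in the deposited expression table whose symbols begin with PSM, a letter from A to G and a digit, with hyphenated symbols left out. The proteasome is the protease that degrades most short-lived and misfolded proteins of the cytosol and nucleus, among them p53 after MDM2 has attached ubiquitin to it. Its 20S core is a barrel of outer alpha rings (PSMA genes) and inner beta rings (PSMB genes) that hold the proteolytic sites. A 19S cap of ATPases (PSMC genes) and non-ATPase subunits (PSMD genes) binds ubiquitinated substrates, unfolds them and feeds them into the core. Chaperones (PSMG genes for the core, PSMD5, PSMD9 and PSMD10 for the cap) guide assembly and are not part of the finished particle, and activators (PSME genes) can bind the core in place of the cap. PSMC3IP matches the symbol rule but encodes no proteasome subunit. Its product, also called HOP2, assists strand exchange in homologous recombination.

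IMR90 is a line of human lung fibroblasts. Cells at passage 28, kept in 3% oxygen, were given DMSO alone or 3 µg/mL Nutlin-3a over 6, 9 or 12 h, and polyA RNA was sequenced in 2 libraries per group. Nutlin-3a occupies the p53 pocket of MDM2 and so frees p53. The labels state neither how long DMSO was applied nor that replicates were separate cultures. P-values therefore measure only the spread between these libraries, which may be technical. Culture time and exposure cannot be told apart, and in bulk RNA neither can fewer cells of a type and less RNA per cell.

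Gene reads numbered 21.9 to 33.6 M per library. Values are normalized counts, meaning reads scaled by 1 size factor per library, in which 1 read was worth 0.818 to 1.25. MDM2 and CDKN1A, both p53 targets, were 3.03 and 3.47 higher on the log2 scale at 6 h than in DMSO. All 10 fibroblast markers listed were detected, and their sum was 1.28 to 1.31 M in DMSO, 1.24 to 1.25 M at 6 h, 1.46 to 1.47 M at 9 h and 1.51 to 1.54 M at 12 h, with 4 rising and 2 falling at 12 h. The summed endothelial markers ran from 1967 to 2071 in DMSO and from 1433 to 1503 at 12 h, nearly all of it TEK. Of the endothelial markers listed, 4 had an entry among the deposited genes. Of these, 3 reached 10 in some library, and CDH5 stayed at 0 to 6.55. The other lists were epithelial markers (sums of 19.8 to 31.3), immune markers (750 to 996, mostly CD68, with PTPRC at 0.914 to 5.77) and smooth muscle markers (10404 to 12634). Their part in the results was not tested.

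The libraries of the DMSO pair differed more than those of each treated pair, and this touched the proteasome genes. Across the 45 members with enough signal to test, the log2 difference of DMSO replicate 2 from replicate 1 had an SD of 0.156 and a median of 0.08, and 33 members were higher in replicate 2. Replicate 2 was also the higher library for 36 of 45 members at 6 h, 35 at 9 h and 27 at 12 h, with medians of 0.06, 0.03 and 0.03. The SD within the pairs was 0.086 at 6 h, 0.057 at 9 h and 0.060 at 12 h. PSMA2 was farthest apart, at 2214 and 3413. Results are therefore given below with and without each DMSO library where that matters.

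Most proteasome genes differed little in RNA level between Nutlin-3a and DMSO. The 4 PSMG genes, which encode chaperones that assemble the 20S core, had both libraries below both DMSO libraries at 9 h and 12 h. So did 31.9% of all genes tested at 9 h and 33.5% at 12 h. Genes are said to have risen or fallen where limma gave an adjusted p under 0.05, with adjustment over all 14074 genes tested. PSMG2 at 9 h and PSMG4 at 12 h missed that threshold. At 6 h, 1 of the 45 tested members rose and 6 fell, against 16.1% and 20.6% of all genes tested. At 9 h, 5 rose and 7 fell, where all genes gave 16.2% and 19.1%. At 12 h, 6 rose and 7 fell, where all genes gave 18.5% and 21.4%. The median log2 change of the members was 0.01, −0.01 and 0.03 at 6, 9 and 12 h, and that of all genes −0.01, 0.01 and 0.01.

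The members also changed by little in size. For 37 of the 45 (82.2%) the log2 change stayed within 0.2 of zero at all 3 times, as it did for 32.2% of all genes tested. Many members are abundant, which narrows their error, with a median standard error of 0.055 against 0.079 for all genes. Among genes with a mean of at least 1000 normalized counts, 36 of 39 members (92.3%) and 49.4% of all genes stayed within that range. In that abundance class 13 members (33.3%) and 67.6% of all genes were called at 1 time or more. No test was made of these shares.

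**Figure D1:**
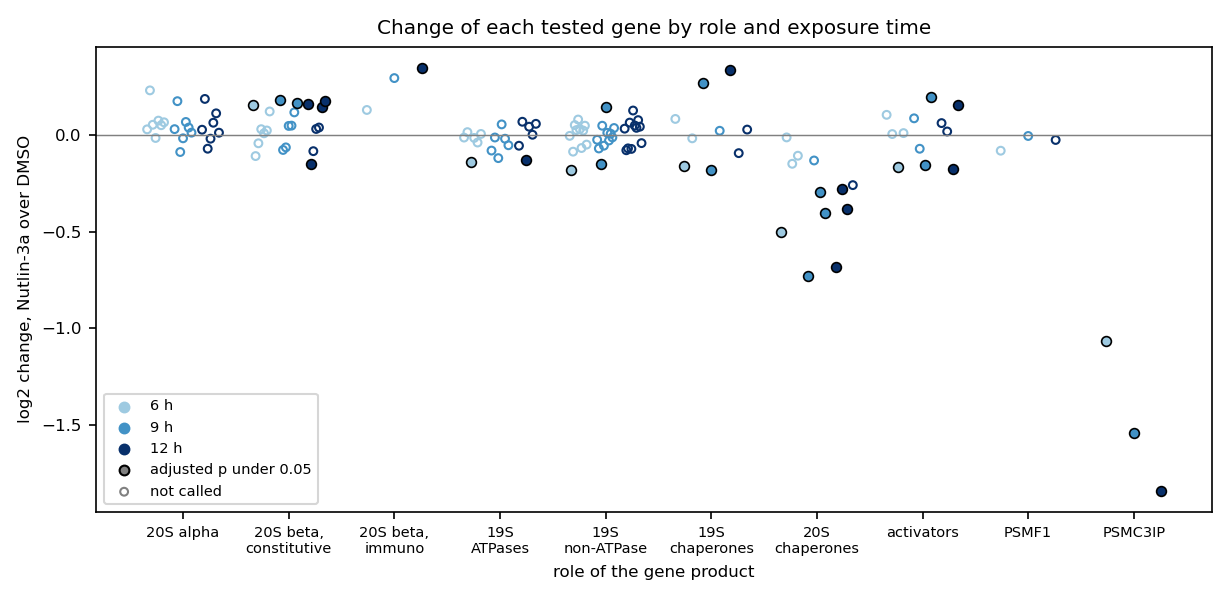
Log2 change of each of the 45 tested genes against DMSO at 6, 9 and 12 h, grouped by the role of the gene product; filled points had a limma adjusted p under 0.05. Constitutive subunits lie between −0.18 and 0.23, the 4 PSMG genes (20S chaperones) lie below zero, and PSMC3IP lies lowest, at −1.07 to −1.84.

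The counts of calls moved with single libraries. Without DMSO replicate 1, 0, 3 and 3 members rose at 6, 9 and 12 h, and without DMSO replicate 2 the numbers were 8, 10 and 12. The number that fell at 9 h was 11 without DMSO replicate 1. Leaving out a treated library lowered the rising members to 0 at 6 h (either library), 1 at 9 h (either library), and 3 or 2 at 12 h (without replicate 1 or 2). It lowered the falling members to 3 at 6 h (without replicate 1), 3 or 4 at 9 h and 4 at 12 h (either library). In a fit that did not let the spread follow abundance, 0, 1 and 0 members rose and 3, 3 and 5 fell. The falls of PSMG1 and PSMC3IP at all times and of PSMG2 at 12 h passed the test under every alternative run.

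The members together made up 0.541 to 0.572% of the gene counts. Both extremes were DMSO libraries, at 147454 summed normalized counts in replicate 1 and 155214 in replicate 2, and the 6 Nutlin-3a libraries lay between them at 148997 to 154732. Per kilobase of the median annotated transcript, PSMD2, which holds the base of the 19S cap together, had the highest level in DMSO at 8462 normalized counts per kb. It was followed by PSMA7 of the alpha ring at 6097 and PSMB4 of the beta ring at 4731, an order that did not change when the longest transcript was used. PSMB10 (208 per kb) and the chaperone PSMG4 (293 per kb) were lowest among the tested members. Medians per kb were 2748 for the alpha ring, 3351 for the constitutive beta ring, 1754 for the ATPases and 2119 for the non-ATPase subunits. Within the alpha ring, whose subunits each occur in equal number in the particle, levels ran from 988 to 6097 per kb. The choice of transcript moved some genes far, as PSMA4 ranked 6 with the median and 29 with the longest transcript. For 12 members the annotation names pseudogenes, 32 in all and 13 of them of PSMC1, and reads that aligned in several places were not counted to genes, so those levels are uncertain.

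**Figure D2:**
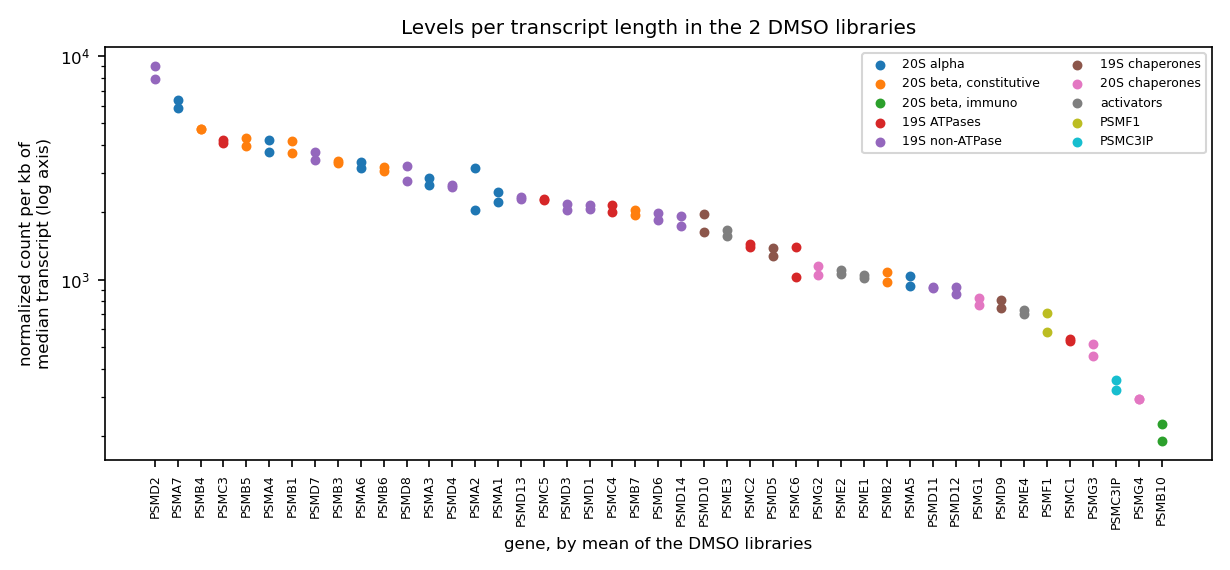
Normalized counts per kb of the median annotated transcript in the 2 DMSO libraries (log axis), for the 45 tested genes ordered by their mean and coloured by role. Levels run from 8462 for PSMD2 to 208 for PSMB10, and the points of PSMA2 and PSMC6 lie farther apart than those of their neighbours.

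No gene of the 20S alpha ring passed the limma test at any time, where 54.9% of all genes tested passed at 1 time or more. This ring forms the gate of the core. The 7 tested genes had median log2 changes of 0.06, 0.03 and 0.03 at 6, 9 and 12 h, with 1, 0 and 0 genes at an unadjusted p under 0.05 and no call by edgeR or DESeq2. Some alternatives did bring calls. PSMA6 rose at 12 h with quantile normalization (0.17), and PSMA2 rose at 6 h with group weights (0.23). Leaving out a DMSO library brought others. Without DMSO replicate 2, PSMA5 was called as rising at all times (0.16, 0.15 and 0.14), PSMA7 at 6 h (0.13) and PSMA6 at 12 h (0.16), and without DMSO replicate 1 PSMA3 was called as falling at 9 h (−0.14). PSMA2 had normalized counts of 2214 and 3413 in DMSO, 3252 and 3213 at 6 h, 3037 and 3184 at 9 h, and 3105 and 3164 at 12 h. The 6 treated libraries lay between the DMSO libraries. Its log2 changes of 0.23 ± 0.11 (SE), 0.18 and 0.19 were the largest among the alpha genes. Without DMSO replicate 2 they were 0.55, 0.49 and 0.50 (called at all times), and without DMSO replicate 1 the changes at 9 h and 12 h turned to −0.13 and −0.12 (called as falling). PSMA6 stood at 2822 and 2992 in DMSO and at 3067 and 3227 at 12 h, a log2 change of 0.11 ± 0.06 (adjusted p = 0.106). PSMA3 stood at 2405 and 2585 in DMSO, 2573 and 2610 at 6 h, 2268 and 2434 at 9 h, and 2337 and 2418 at 12 h. Its groups overlapped with DMSO throughout. PSMA8, a spermatoproteasome subunit, was at 0 to 3.12, near the value of 3 reads taken as the detection floor (2.46 to 3.75 normalized counts).

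The constitutive beta ring had 3 genes that rose by 12 h and 1 that fell, among 7 tested, where 18.5% of all genes rose and 21.4% fell at 12 h. PSMB1, a structural beta subunit without a proteolytic site, had 3405 and 3866 normalized counts in DMSO, 4048 and 4055 at 6 h, 4091 and 4148 at 9 h, and 4122 and 4012 at 12 h. All treated libraries lay above both DMSO libraries, and the gene rose by 0.16, 0.18 and 0.16 on the log2 scale (limma adjusted p = 0.027, 0.012 and 0.020). PSMB7, which carries the trypsin-like site, stood at 1901 and 2009 in DMSO, 2056 and 2207 at 6 h, 2185 and 2210 at 9 h, and 2143 and 2276 at 12 h. It too lay above DMSO in every treated library, and rose by 0.17 at 9 h and 0.18 at 12 h (adjusted p = 0.023 and 0.016). PSMB6, the caspase-like subunit, had 2642 and 2747 in DMSO, 2672 and 2815 at 6 h, 2886 and 2969 at 9 h, and 3021 and 2953 at 12 h. Its groups overlapped at 6 h and not later, and it rose by 0.15 at 12 h (adjusted p = 0.024).

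PSMB5, the chymotrypsin-like subunit and the main target of proteasome inhibitor drugs, was not called. It had 3984 and 4322 normalized counts in DMSO, 4073 and 4294 at 6 h, 4190 and 4410 at 9 h, and 4222 and 4317 at 12 h. Each treated pair overlapped with DMSO, and the log2 change at 12 h was 0.04 with a 95% interval of −0.07 to 0.15. PSMB2, another structural subunit, fell at 12 h by 0.15 on the log2 scale (adjusted p = 0.032), from 3747 and 3389 to 3229 and 3213. That call was lost in 12 of 21 alternatives, among them TMM scaling, quantile normalization, edgeR, DESeq2, the authors' deposited tests and leaving out either 9 h library.

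None of these beta ring calls held under every alternative. Without DMSO replicate 1 the log2 change of PSMB1 dropped to 0.07, 0.09 and 0.07 at 6, 9 and 12 h, that of PSMB2 at 12 h to −0.07, that of PSMB6 at 12 h to 0.12 and that of PSMB7 at 9 h to 0.13, and none of these passed the test. Without DMSO replicate 2 PSMB1 stood at 0.25, 0.27 and 0.26. Without either library of the treated pair PSMB1, PSMB2, PSMB6 and PSMB7 at 9 h also missed it, as did PSMB7 at 12 h without replicate 2 (0.13).

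PSMB10, the beta subunit that takes the place of PSMB7 in the immunoproteasome, was the rising core subunit with the largest log2 change. The immunoproteasome is the form of the core that interferon induces and that favours peptides for MHC class I. PSMB10 had 232 and 276 normalized counts in DMSO, 244 and 315 at 6 h, 310 and 312 at 9 h, and 336 and 309 at 12 h. The 9 h and 12 h libraries lay above both DMSO libraries, whereas the 6 h pair overlapped with them. The log2 changes were 0.13 ± 0.12, 0.30 ± 0.12 (adjusted p = 0.051) and 0.35 ± 0.12 (adjusted p = 0.020). The 12 h call was lost without DMSO replicate 1 (0.22), without 12 h replicate 1 (0.29) and in the fit without an abundance trend. It was also lost with DESeq2 and in the authors' deposited table (adjusted p = 0.065 in both). At 9 h PSMB10 passed with TMM scaling (0.31), quantile normalization (0.34), edgeR (0.32), a replicate block or a filter at a mean of 50.

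PSMB8, which replaces PSMB5 in the immunoproteasome, was listed at 0 to 3.84, and PSMB11, its counterpart in the thymus, at 0 to 4.09. The level of PSMB8 cannot be read as absence. Its gene lies in the MHC region, and some genes there that most cells use were also at or near 0. BAG6 was at 0.977 to 4.80, CSNK2B at 0 to 3.22 and RING1 at 0 to 3.12. HLA-C, also in that region, stood at 3558 to 4571. Of the 60 nearest protein-coding genes in RefSeq (GRCh38.p14), 29 were in the table and 14 of those (48.3%) stayed under 10 in all libraries. Around the other 47 members this share ran from 5.56 to 25.6%. PSMB9, the partner of PSMB8 in that region, had no entry among the deposited genes and so was not analysed here.

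Few genes of the 19S cap were called, where 54.9% of all genes tested were called at 1 time or more. Among the 6 ATPases, which unfold substrates, only PSMC3 was called. It had 6192 and 6005 normalized counts in DMSO, 5421 and 5672 at 6 h, 5554 and 5688 at 9 h, and 5507 and 5676 at 12 h, so that all treated libraries lay below DMSO. It fell by 0.14 at 6 h and 0.13 at 12 h (adjusted p = 0.025 and 0.037), and the 9 h change was −0.12 (adjusted p = 0.054). The 6 h call was lost without 6 h replicate 1 (−0.10). The 12 h call was lost without DMSO replicate 1 (−0.10), with 12 h replicate 1 left out (−0.10) or replicate 2 left out (−0.15), without either 9 h library (−0.13) and with edgeR (−0.10), in all in 11 of 21 alternatives, TMM and quantile scaling included.

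PSMC2 had 3707 and 3811 normalized counts in DMSO, 3751 and 3857 at 6 h, 3647 and 3817 at 9 h, and 3896 and 4002 at 12 h. Only the 12 h pair lay wholly above DMSO, at a log2 change of 0.07 (adjusted p = 0.257). PSMC6 stood at 1631 and 2226 in DMSO and within 1823 to 2027 in the treated libraries. The treated libraries again all lay between the DMSO libraries, as for PSMA2. Without DMSO replicate 1 PSMC6 was called as falling at all times (−0.22, −0.27 and −0.16), and without DMSO replicate 2 as rising at all times (0.23, 0.17 and 0.28).

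Of the 11 non-ATPase subunits, which include the ubiquitin receptors PSMD2 and PSMD4 and the deubiquitinase PSMD14, 3 were called, each at a single time. The share of all genes tested that were called at 1 time or more was 54.9%. PSMD11 had 3068 and 3053 normalized counts in DMSO, 2744 and 2669 at 6 h, 2879 and 2963 at 9 h, and 2917 and 2888 at 12 h. It was below DMSO in all treated libraries and fell at 6 h by 0.18 (adjusted p = 0.0066), a call lost without 6 h replicate 2 (−0.16). PSMD2 had 20769 and 23794 in DMSO, 22926 and 24171 at 6 h, 24815 and 24369 at 9 h, and 24502 and 24130 at 12 h. It rose at 9 h by 0.15 (adjusted p = 0.039), which shrank to 0.05 without DMSO replicate 1, grew to 0.24 without DMSO replicate 2 and was lost without any one treated library. PSMD12 fell at 9 h by 0.15 (adjusted p = 0.033), and missed the test without DMSO replicate 2 (−0.10), without 9 h replicate 1 (−0.17) and without 9 h replicate 2 (−0.12). The PSMD2 call was lost in 12 of 21 alternatives and the PSMD12 call in 9. Both were lost with quantile normalization, with DESeq2 and in the authors' deposited tests, and PSMD12 also with edgeR. At 12 h PSMD2 was at 0.13 (limma adjusted p = 0.060). It passed there with TMM scaling, edgeR, group weights or a replicate block. PSMD6 had 2581 and 2770 in DMSO and 2812 and 2839 at 12 h, at a log2 change of 0.08 (adjusted p = 0.241).

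Over the 31 constitutive subunits of core and cap, the log2 changes lay between −0.18 and 0.23 at 6 h, −0.15 and 0.18 at 9 h, and −0.15 and 0.19 at 12 h. The medians were 0.03, 0.01 and 0.04, and they turned to −0.03, −0.03 and −0.01 without DMSO replicate 1. A p that misses the threshold does not show an equal level. The 95% intervals of the fit assume 1 spread shared by all groups, although the DMSO pair differed more. For the subunits not called these intervals reached from −0.22 (PSMB2) to 0.47 (PSMA2) at 6 h and from −0.24 (PSMC6) to 0.41 (PSMA2) at 9 h. At 12 h they reached from −0.19 (PSMD14) to 0.42 (PSMA2). Without DMSO replicate 2 the changes of PSMA2 (0.55, 0.49 and 0.50) lay outside them. So did that of PSMC6 at 9 h without DMSO replicate 1 (−0.27), so the intervals do not bound the size for every subunit.

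**Figure D3:**
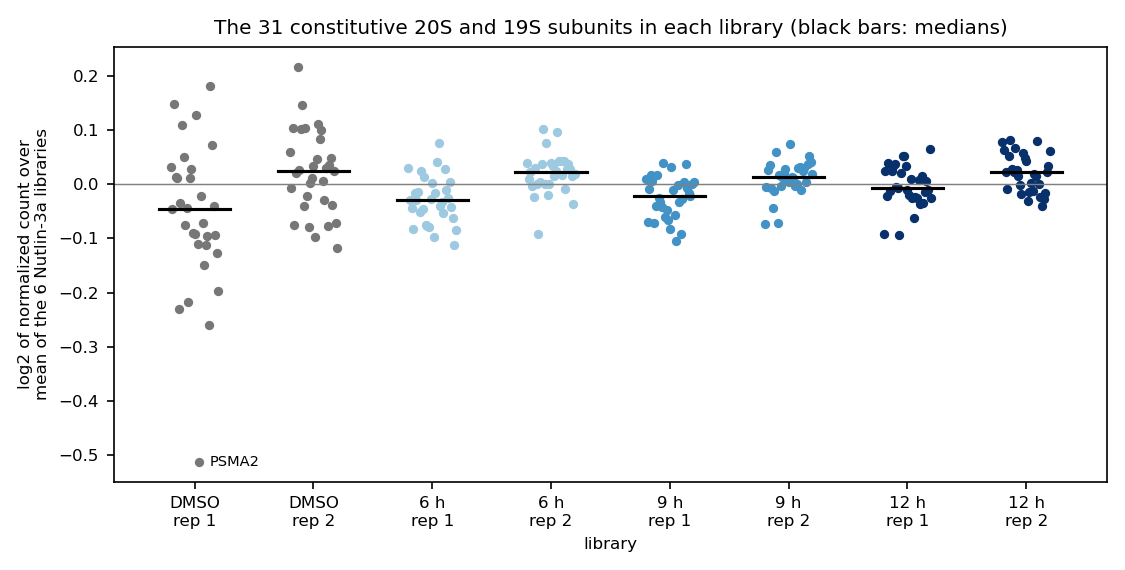
Each of the 31 constitutive 20S and 19S subunits in each library, as the log2 of its normalized count over its mean in the 6 Nutlin-3a libraries; black bars are medians. Points of the treated libraries lie close to zero, and DMSO replicate 1 spreads most widely, with PSMA2 lowest.

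The 3 assembly chaperones of the 19S base did not move together. PSMD10, the ankyrin repeat protein gankyrin, which is also known to bind MDM2, had 1275 and 1535 normalized counts in DMSO, 1531 and 1439 at 6 h, 1600 and 1780 at 9 h, and 1733 and 1812 at 12 h. The 6 h pair overlapped with DMSO and the later pairs lay above it. PSMD10 rose by 0.27 ± 0.07 at 9 h (adjusted p = 0.0074) and by 0.34 ± 0.07 at 12 h (adjusted p = 0.001). Without DMSO replicate 1 these were 0.14 (not called) and 0.21, without 9 h replicate 2 the 9 h value was 0.19 (not called), and in the fit without an abundance trend neither passed. PSMD5 had 1961 and 2136 in DMSO, 1849 and 1815 at 6 h, 1773 and 1847 at 9 h, and 1914 and 1927 at 12 h. It lay below DMSO in all treated libraries and fell by 0.16 at 6 h and 0.18 at 9 h (adjusted p = 0.03 and 0.017), with −0.09 at 12 h (adjusted p = 0.205). Both calls were lost without DMSO replicate 2 (−0.10 and −0.12) and without replicate 1 of the treated pair (−0.17 and −0.15), and the 6 h call also without 6 h replicate 2 (−0.15), with DESeq2 and in the authors' deposited tests. Quantile normalization lost both. PSMD9 had 1734 and 1866 in DMSO and 1882 and 1794 at 12 h, and each treated pair overlapped with DMSO.

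All 4 PSMG genes, for chaperones of the 20S core, had lower RNA at 9 h and 12 h than in DMSO, with no overlap between the groups. Of all genes tested, 31.9% at 9 h and 33.5% at 12 h had both libraries below both DMSO libraries. PSMG1 and PSMG2 form a dimer on which the alpha ring assembles, and PSMG3 and PSMG4 form a second dimer that helps to order it. PSMG1 fell at all times, PSMG2 at 12 h, PSMG3 at 9 h and 12 h, and PSMG4 at 9 h. The median log2 change of the 4 genes was −0.13, −0.35 and −0.33 at 6, 9 and 12 h.

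PSMG1 had 1176 and 1264 normalized counts in DMSO, 863 and 857 at 6 h, 753 and 717 at 9 h, and 731 and 790 at 12 h. Every treated library was far below the DMSO pair. It fell by 0.50 ± 0.07 at 6 h, by 0.73 ± 0.07 at 9 h and by 0.68 ± 0.07 at 12 h (limma adjusted p = 5.4e-06, 2.4e-08 and 5.4e-08), which is 0.706, 0.603 and 0.623 of the DMSO level.

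PSMG2 had 1085 and 1196 normalized counts in DMSO, 1141 and 1121 at 6 h, 1040 and 1042 at 9 h, and 912 and 965 at 12 h. The 6 h pair lay within the DMSO range, and both later pairs lay below it. The log2 change was −0.01 at 6 h and −0.13 at 9 h (adjusted p = 0.126), and PSMG2 fell by 0.28 ± 0.06 at 12 h (adjusted p = 0.0014). Of this dimer, PSMG1 was thus called from 6 h and PSMG2 only at 12 h; the difference between the genes was not tested.

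PSMG3 had 457 and 519 normalized counts in DMSO, 413 and 469 at 6 h, 397 and 397 at 9 h, and 353 and 397 at 12 h. Only the 6 h pair overlapped with DMSO. It fell by 0.30 ± 0.09 at 9 h (adjusted p = 0.016) and by 0.38 ± 0.09 at 12 h (adjusted p = 0.0023). The 9 h call was lost with DESeq2, in the authors' deposited tests, with quantile normalization, without DMSO replicate 2 (−0.20) and without 9 h replicate 1 (−0.30) or replicate 2 (−0.29), and the 12 h call without 12 h replicate 1 (−0.30).

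PSMG4, described here after its values had been seen, had 227 and 228 normalized counts in DMSO, 206 and 216 at 6 h, 172 and 172 at 9 h, and 187 and 193 at 12 h. All treated libraries lay below DMSO, lowest at 9 h. It fell by 0.40 ± 0.10 at 9 h (adjusted p = 0.0047), while DESeq2 and the authors' deposited table gave an adjusted p of 0.0504. At 12 h its log2 change was −0.26 ± 0.10 (adjusted p = 0.054).

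**Figure D4:**
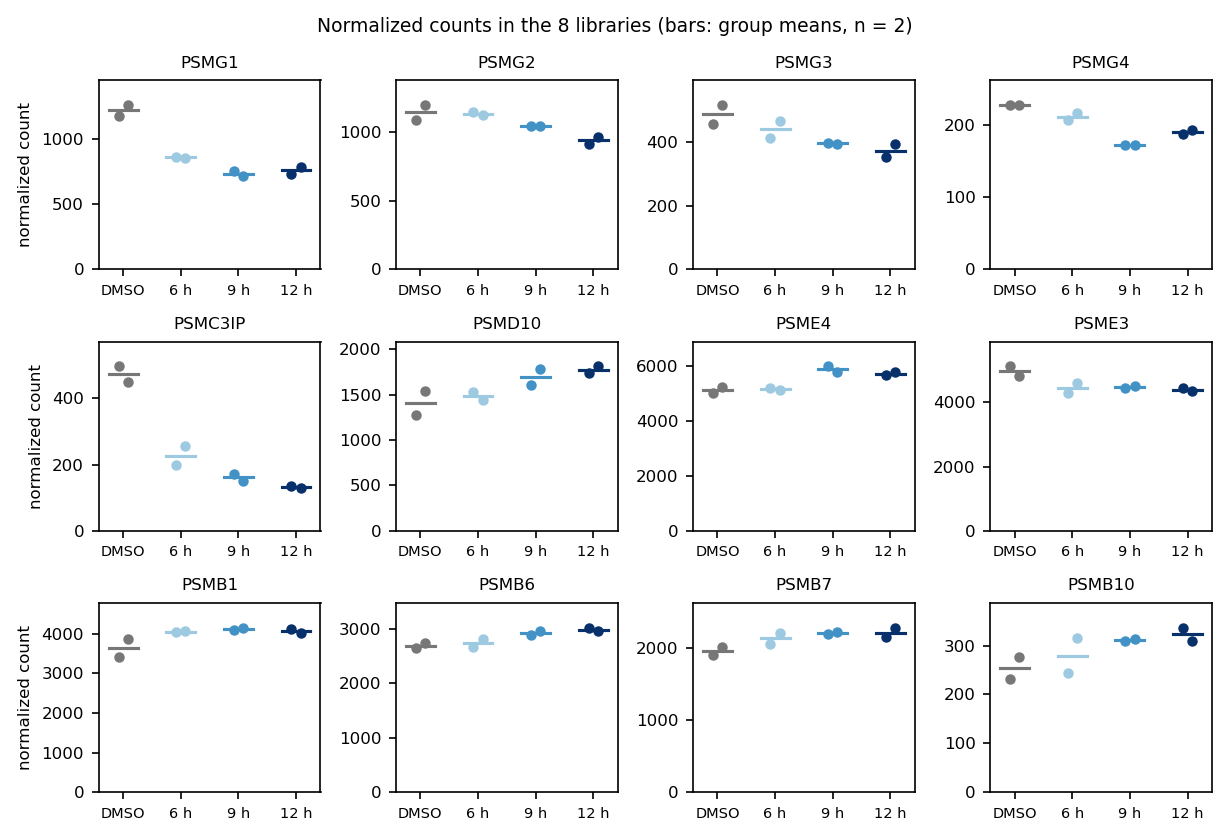
Normalized counts in all 8 libraries for 12 genes, with bars for the means of 2 libraries and axes that start at 0. PSMG1, PSMG2, PSMG3, PSMG4 and PSMC3IP are lower at 12 h than in DMSO. PSMD10, PSMB1, PSMB6, PSMB7 and PSMB10 are higher at 12 h, and PSME4 and PSME3 move by under 0.2 on the log2 scale.

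The stretches in front of 3 PSMG genes are printed because PSMG1, PSMG2 and PSMG4 were each called as falling at 1 time or more. PSMG3, which also fell, had no promoter entry. Those of PSMB10, PSME2 and PSME4 were picked because they carry the elements most often named for inducible proteasome genes. Their matches to these elements follow from that choice, and other members carry them too. Each stretch is the 250 bases before the RefSeq start on GRCh38.p14, read 5′ to 3′ on the strand of the gene. Capitals mark any match on either strand to 5 motifs, which were the antioxidant response element core TGACNNNGC bound by NFE2L1 and NFE2L2, the CCAAT box CCAAT bound by NF-Y, the CHR element TTTGAA or TTTAAA bound by the MuvB core, the interferon-stimulated response element GAAANNGAAA, and the p53 decamer, the short repeat of which a full p53 element holds a pair.
PSMG1 (chr21:39183452-39183701, minus strand): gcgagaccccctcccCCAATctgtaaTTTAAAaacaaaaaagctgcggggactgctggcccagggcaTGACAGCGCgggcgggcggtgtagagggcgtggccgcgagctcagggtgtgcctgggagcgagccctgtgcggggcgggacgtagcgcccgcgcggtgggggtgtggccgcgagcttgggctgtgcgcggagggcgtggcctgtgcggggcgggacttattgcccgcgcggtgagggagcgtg
PSMG2 (chr18:12658488-12658737, plus strand): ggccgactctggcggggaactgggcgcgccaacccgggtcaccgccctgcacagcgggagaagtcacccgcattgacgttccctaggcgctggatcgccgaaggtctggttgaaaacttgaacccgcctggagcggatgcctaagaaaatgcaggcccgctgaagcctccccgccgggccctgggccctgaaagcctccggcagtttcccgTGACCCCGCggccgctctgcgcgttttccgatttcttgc
PSMG4 (chr6:3258697-3258946, plus strand): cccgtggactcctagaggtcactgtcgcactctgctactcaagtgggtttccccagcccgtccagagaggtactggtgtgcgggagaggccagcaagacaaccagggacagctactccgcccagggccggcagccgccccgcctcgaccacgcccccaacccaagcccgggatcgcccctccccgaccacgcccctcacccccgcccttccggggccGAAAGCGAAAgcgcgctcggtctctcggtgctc
PSMB10 (chr16:67936851-67937100, minus strand): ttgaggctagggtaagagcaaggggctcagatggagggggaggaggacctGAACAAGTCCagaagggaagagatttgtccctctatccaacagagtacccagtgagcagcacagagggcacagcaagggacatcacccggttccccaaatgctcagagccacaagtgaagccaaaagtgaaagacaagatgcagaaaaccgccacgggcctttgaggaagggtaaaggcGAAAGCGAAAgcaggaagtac
PSME2 (chr14:24146611-24146860, minus strand): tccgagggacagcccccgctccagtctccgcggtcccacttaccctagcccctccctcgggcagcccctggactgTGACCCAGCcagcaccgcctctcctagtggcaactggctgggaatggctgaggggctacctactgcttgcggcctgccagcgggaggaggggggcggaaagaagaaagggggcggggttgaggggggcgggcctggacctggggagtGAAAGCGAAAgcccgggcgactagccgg
PSME4 (chr2:53970994-53971243, minus strand): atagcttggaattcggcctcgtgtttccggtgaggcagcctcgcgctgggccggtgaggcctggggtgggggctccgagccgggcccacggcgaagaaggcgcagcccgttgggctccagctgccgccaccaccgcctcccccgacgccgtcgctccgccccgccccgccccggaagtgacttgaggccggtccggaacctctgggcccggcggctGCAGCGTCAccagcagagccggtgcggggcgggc

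The 3 PSMG stretches shared no single motif of the 5. PSMG1 held a CCAAT box 231 to 235 bases before the start, the CHR letters at 219 to 224 and the antioxidant core at 175 to 183. PSMG2 held the antioxidant core alone, at 31 to 39, and PSMG4 the interferon letters alone, at 24 to 33. PSMB10 held the interferon letters at 12 to 21 and a p53 decamer at 191 to 200, PSME2 the interferon letters at 19 to 28 and the antioxidant core at 167 to 175, and PSME4 the antioxidant core at 26 to 34. A match of letters is a description, not a bound site.

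Over the 42 members with an entry in the promoter table, the antioxidant core stood in 10 (23.8%), against 11.0% of all 27305 promoters of that length and 12.2% of those of tested genes. Among the 26 constitutive core and cap subunits with an entry it stood in 3 (11.5%). The CCAAT box stood in 18 (42.9%, against 33.0% of all), the CHR letters in 5 (11.9%, against 22.1% of all), the interferon element in 5 (11.9%, against 3.07% of all) and the p53 decamer in 3 (7.14%, against 5.53% of all). Among promoters of tested genes these shares were 34.6% for the CCAAT box, 14.4% for the CHR letters, 2.31% for the interferon element and 4.58% for the p53 decamer. The interferon element was found at PSMA4, PSMB10, PSMB4, PSME2 and PSMG4, of which PSMB10 rose at 12 h, PSMG4 fell at 9 h and the other 3 were not called. The p53 decamer was found at PSMA2, PSMB10 and PSMD13.

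Among the 4 activators, PSME3 and PSME4 changed in opposite directions by small amounts. PSME3, the nuclear activator PA28 gamma, had 5128 and 4823 normalized counts in DMSO, 4283 and 4594 at 6 h, 4443 and 4498 at 9 h, and 4435 and 4368 at 12 h. All treated libraries lay below DMSO, and it fell by 0.16, 0.15 and 0.18 (adjusted p = 0.013, 0.021 and 0.0076). PSME4, the large activator PA200, had 4999 and 5217 in DMSO, 5196 and 5106 at 6 h, 5975 and 5754 at 9 h, and 5639 and 5762 at 12 h. The 6 h pair lay inside the DMSO range and the later pairs above it, and PSME4 rose by 0.20 ± 0.05 at 9 h and 0.16 ± 0.05 at 12 h (adjusted p = 0.0019 and 0.0094).

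Single libraries bore on these calls too. The fall of PSME3 missed the test without 6 h replicate 1 (−0.11), at 9 h without DMSO replicate 1 (−0.11), 9 h replicate 1 (−0.14) or 9 h replicate 2 (−0.16), and at 12 h without 12 h replicate 2 (−0.17). The rise of PSME4 missed it without 9 h replicate 1 (0.17) and without 12 h replicate 2 (0.14). PSME1, which with PSME2 forms the interferon-induced cytosolic activator, had 1042 and 1073 in DMSO, 1087 and 1193 at 6 h, 1090 and 1160 at 9 h, and 1108 and 1103 at 12 h. All treated libraries were above DMSO, but the log2 changes of 0.11, 0.09 and 0.06 were not called (adjusted p = 0.208, 0.305 and 0.454). PSME2 stayed within 809 to 913 across all libraries. PSMF1, known as PI31, an inhibitor of the core in vitro, had 2631 and 2153 in DMSO and 2219 to 2401 under Nutlin-3a, and each treated pair lay within the DMSO range. It was called as falling at all times without DMSO replicate 2 (−0.22, −0.15 and −0.17) and as rising at 9 h without DMSO replicate 1 (0.14).

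PSMC3IP showed the deepest fall among the genes that match the symbol rule. It had 497 and 449 normalized counts in DMSO, 198 and 256 at 6 h, 171 and 152 at 9 h, and 134 and 128 at 12 h. The libraries of successive times did not overlap. PSMC3IP fell by 1.07 ± 0.12 at 6 h, fell by 1.55 ± 0.12 at 9 h and fell by 1.84 ± 0.12 at 12 h on the log2 scale (adjusted p = 6.8e-07, 2.1e-09 and 9.9e-11). Without this gene the members numbered 44 tested, of which 1, 5 and 6 rose and 5, 6 and 6 fell at 6, 9 and 12 h.

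Between the Nutlin-3a times few members moved. From 6 to 12 h, 2 rose and 3 fell, against 14.4% and 17.1% of all genes, and none of these was a subunit of core or cap. PSMD10 rose by 0.25 (adjusted p = 0.012) and PSME4 by 0.15 (adjusted p = 0.019), while PSMC3IP fell by 0.77 (adjusted p = 5e-05), PSMG2 by 0.27 (adjusted p = 0.0026) and PSMG1 by 0.18 (adjusted p = 0.048). The PSMG1 call was lost in 13 of 20 alternatives. PSMD10 was not called without 6 h replicate 2 (0.21) or 12 h replicate 2 (0.22), nor PSMG2 without 12 h replicate 1 (−0.23), nor PSME4 without any 1 library of either time (0.13 to 0.16). From 6 to 9 h, 1 rose (PSME4) and 2 fell (PSMG1 and PSMC3IP), against 8.52% and 9.9% of all genes. From 9 to 12 h limma called no member, where 1.08% of all genes rose and 2.92% fell. There 2 members had an unadjusted p under 0.05, and edgeR and DESeq2 made no call. For the 31 constitutive subunits from 6 to 12 h limma, edgeR and DESeq2 made no call, with 3 at an unadjusted p under 0.05 in limma. Other settings of limma did call some of them. PSMB6 rose with TMM scaling (0.13), and PSMB6 (0.17), PSMD4 (0.14) and PSMD11 (0.14) rose with quantile normalization. With only the 2 groups compared PSMA3 fell (−0.12) and PSMB6 (0.12) and PSMD4 (0.10) rose. Group weights called PSMA3 and PSMB6 in the same directions.

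The counts from 6 to 12 h also moved with single libraries, to 4 rising and 5 falling without either DMSO library, which enters only through the shared spread. They dropped to 1 rising without either 6 h library or without 12 h replicate 1, to 0 rising without 12 h replicate 2, and to 1 falling without 12 h replicate 1. From 6 to 9 h they were 3 rising and 4 falling without either DMSO library, 0 rising without 6 h replicate 2 or 9 h replicate 1, 1 falling without 6 h or 9 h replicate 1, and 0 falling without 6 h or 9 h replicate 2.

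Partners of the proteasome that carry other symbols gave a mixed picture. Of 15 tested, 2 rose and 5 fell at 6 h, and 2 rose and 4 fell at 9 h and at 12 h, with medians of 0.00, −0.07 and −0.07. Of all genes tested, 16.1% rose and 20.6% fell at 6 h, 16.2% and 19.1% at 9 h, and 18.5% and 21.4% at 12 h. UCHL5, a deubiquitinase of the 19S cap, had 1317 and 1575 normalized counts in DMSO, 1156 and 1137 at 6 h, 983 and 995 at 9 h, and 919 and 957 at 12 h, and fell by 0.33, 0.54 and 0.62. The 6 h fall was 0.20 without DMSO replicate 2. IPO9, an importin, and AKIRIN2, with which it carries proteasomes into the nucleus, fell by 0.55 and 0.25 at 12 h (adjusted p = 1.5e-08 and 0.0044). The AKIRIN2 call was lost without 12 h replicate 1 (−0.18). POMP, the chaperone that brings beta subunits onto the alpha ring, rose by 0.25, 0.17 and 0.16 (adjusted p = 0.0017, 0.024 and 0.028), opposite in direction to the PSMG genes. POMP was singled out after its values had been seen, and its calls were not followed through the alternatives.

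Known regulators of proteasome gene transcription numbered 11, of which 5, 4 and 4 rose and 1, 1 and 2 fell at 6, 9 and 12 h. Of all genes tested, 16.1%, 16.2% and 18.5% rose and 20.6%, 19.1% and 21.4% fell. NFE2L1, the factor that raises all proteasome subunits when the proteasome is inhibited, was named after its values had been seen and had log2 changes of 0.00, −0.02 and −0.03 (not called). STAT3 rose by 0.40, 0.55 and 0.46, MAFK, a small MAF partner of NFE2L1 and NFE2L2, by 0.54, 0.36 and 0.42, and BACH1, a repressor at antioxidant elements, by 0.28, 0.16 and 0.24. The BACH1 call at 9 h was lost without DMSO replicate 1 (0.08) and without 9 h replicate 1 (0.15) or 9 h replicate 2 (0.17). The list had medians of 0.17, −0.02 and −0.03.

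Of 16 genes for ubiquitin and substrate delivery, 2, 1 and 1 rose and 4, 3 and 3 fell, with medians of −0.07, −0.04 and −0.05. The falling share was near that of all genes (20.6%, 19.1% and 21.4%), and 16.1%, 16.2% and 18.5% of all genes rose. FAF1, an adaptor of VCP, fell by 0.33, 0.33 and 0.41. VCP, the unfoldase upstream of the proteasome, rose by 0.12 at 9 h and 0.19 at 12 h (adjusted p = 0.039 and 0.002), a rise that at 9 h missed the test when DMSO replicate 1 (0.07) or any one treated library was left out. Of 15 tested genes of MHC class I antigen processing, 4, 5 and 5 rose and 2, 3 and 3 fell, with medians of 0.03, 0.10 and 0.10, where 16.1%, 16.2% and 18.5% of all genes rose and 20.6%, 19.1% and 21.4% fell. ERAP2, which trims peptides for MHC class I, rose by 0.29, 0.29 and 0.30, HLA-C by 0.23, 0.27 and 0.24, and CALR, a chaperone of the peptide loading complex, by 0.20 at 9 h and at 12 h. Without DMSO replicate 1 the rise of HLA-C was 0.15 at 6 h and 0.16 at 12 h, and under quantile normalization the 12 h rises of CALR and VCP were 0.12 and 0.13. TAP1 and HLA-E, in the same region as PSMB8, were listed near 0, at 0 to 3.27 and 0 to 4.57. HLA-C lies in that region too, and whether some of its reads were missing was not tested.

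**Figure D5:**
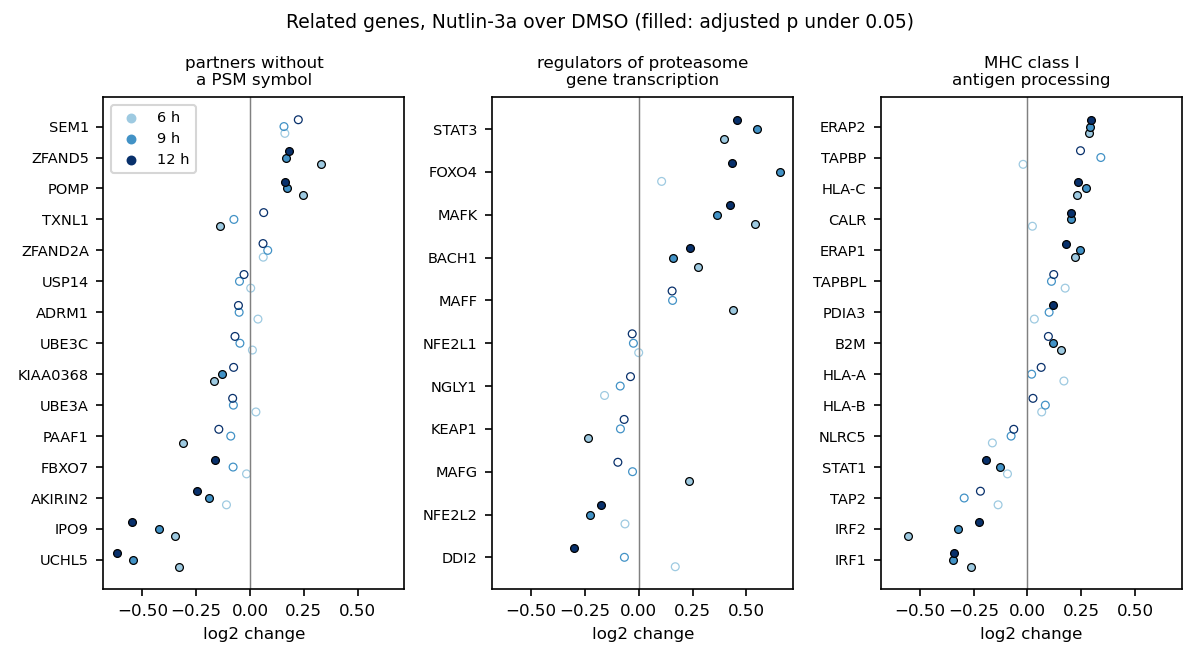
Log2 change against DMSO at 6, 9 and 12 h for tested genes of 3 related lists (partners, regulators and antigen processing), ordered by the 12 h value; filled points had a limma adjusted p under 0.05. UCHL5 and IPO9 lie lowest among the partners and STAT3 highest at 12 h among the regulators.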

How the data were processed

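STAR, DESeq2 and build hg19 are named, without versions, per the submitters' processing notes. The counter, annotation and strand setting were not given in the sources used here. What the authors deposited were normalized counts, a signal equal to reads divided by a size factor, and DESeq2 tables whose columns include log2 fold changes, a score (the Wald statistic) and p-values, given as DMSO over Nutlin-3a and turned here. The 3 entries that name no gene held 28.2 to 29.1% of each library's reads and were left out. Every value was a whole multiple of 1 read within 1e-06 (100% of values).

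Differences were tested with limma 3.58.1 in R 4.3.3, with an intensity trend, on log2(normalized count + 1) of all 8 libraries (degrees of freedom: 4 residual, 15.5 prior). This scale understates changes of low genes. The 14074 genes that reached 10 in 2 or more libraries entered the test, and p-values were adjusted by Benjamini-Hochberg (threshold 0.05). For 2 against 2 libraries the smallest exact permutation p is 0.333. The fit was tested on simulated data first. Alternatives were TMM and quantile scaling, pseudocounts, filters, variance models, edgeR 4.0.16 and DESeq2 1.42.0 on recovered reads, a replicate block, the authors' tests and leaving out each library. Where a group was left with 1 library, it was assumed to vary like the others. Floors cover counting error only, as the labels name no molecular identifiers.

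Members and lists were chosen with earlier results of these data known. Library values are given for up to 3 members per role with the largest change at 12 h, those changed by at least 0.4, the catalytic pairs and members under the filter, and for related lists 3 genes with the smallest p at 12 h are named, except 1 that is not reported here. Promoters came from RefSeq (GRCh38.p14), with 42 of 48 members matched. Transcript lengths came from a supplied GENCODE annotation.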

Additional observations from a re-analysis of the deposited data

Results flagged for a closer look

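For 5 genes the change under Nutlin-3a itself differed between exposure times in the limma test of that difference. From 6 to 12 h the log2 change was −0.77 for PSMC3IP, 0.255 for PSMD10, 0.15 for PSME4, −0.18 for PSMG1 and −0.27 for PSMG2. From 6 to 9 h it was −0.48 for PSMC3IP, 0.19 for PSME4 and −0.23 for PSMG1. The groups of 2 libraries are too small for a check of single libraries that stand apart.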

How the results depend on the processing

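Calls against DMSO and from 6 to 12 h were followed through the alternatives for members, related genes picked by p, MDM2 and CDKN1A. None of these changed direction. The calls from 6 to 9 h, of POMP and of the antisense genes were not followed gene by gene. PSMA2, PSMC6 and PSMF1, not called in the test reported, were called in opposite directions without DMSO replicate 1 and without DMSO replicate 2. Groups of 2 and the wide DMSO pair limit what can be seen. Numbers of proteasome genes that rose at 6 h, 1 in the test reported, were 2 with quantile normalization or group weights and 0 without an intensity trend or with only the 2 groups compared, and those that fell, 6, were 3 with either of the latter. At 9 h the 5 that rose became 1 without the trend and 3 with 2 groups, and the 7 that fell became 4 with quantile normalization, 2 groups, DESeq2 or the authors' tests and 3 without the trend. At 12 h the 6 that rose became 0 without the trend. From 6 to 12 h the 2 that rose became 5 with quantile normalization, 0 without the trend and 4 with 2 groups, and the 3 that fell became 5 with 2 groups or group weights. From 6 to 9 h the 1 that rose became 0 without the trend and 2 with 2 groups or group weights, and the 2 that fell became 1 without the trend or with DESeq2 and 4 with 2 groups or group weights. From 9 to 12 h the count was 0 throughout. The cause was not tested. Leaving out 1 library gave 0 to 8 rising and 3 to 8 falling at 6 h, 1 to 10 and 3 to 11 at 9 h, 2 to 12 and 4 to 9 at 12 h, 0 to 4 and 1 to 5 from 6 to 12 h, and 0 to 3 and 0 to 4 from 6 to 9 h.

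Same-numbered deviations correlated at −0.18 to 0.12 over 10612 genes. With 2 libraries per group this cannot show whether a replicate number marks a shared culture or day. Among the tested members replicate 2 was more often the higher library in every group. With a replicate block 1 member rose and 6 fell at 6 h, 6 rose and 7 fell at 9 h, and 7 rose and 7 fell at 12 h.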

Other observations

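The symbol rule left out 3 antisense genes. PSMG3-AS1, next to the chaperone gene PSMG3, had 135 and 132 normalized counts in DMSO, 118 and 139 at 6 h, 181 and 180 at 9 h, and 201 and 193 at 12 h, and rose by 0.43 ± 0.12 at 9 h and 0.56 ± 0.12 at 12 h (limma adjusted p = 0.0078 and 0.00089), while PSMG3 fell. PSMA3-AS1 had 491 and 504 in DMSO and 622 and 556 at 6 h, and rose by 0.24 ± 0.08 there (adjusted p = 0.02). PSMD6-AS2 stayed at 20.2 to 36.8. The strand setting of the counting is not given, so reads of a gene and its antisense partner cannot be told apart.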
